A study of Mus musculus with 14 samples.

Results

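Cultures of the 4T1 line, a BALB/c mouse mammary tumor line, were compared between 2 states. One had high Esrp1 but little Cldn7 (3 intermediate cultures) and the other had little Esrp1 (5 Esrp1-low cultures). These 8 were among 14 cultures profiled on single-color mouse gene arrays, and the states were assigned by measured values, not by the labels. The study asked how the level of Cnot7, an enzyme of the CCR4-NOT complex that shortens the poly(A) tails of mRNAs, alters the 4T1 transcriptome. All 14 samples were cells in culture that carried a construct. The over-expression vectors held a non-coding stuffer fragment (vector control, 3 samples) or human FLAG-tagged CNOT7 (CNOT7 over-expression, 3 samples). The methods of the study name different parent vectors for these. The other samples carried a hairpin against Cnot7 (sh74, 2 samples, or sh75, 3 samples) or a scrambled hairpin (shScramble, 3 samples). Cells with over-expression vectors were selected with blasticidin and those with hairpins with puromycin, so no sample was an unselected culture, and the labels do not say whether samples of a group came from separate transductions or cultures.

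Epithelial cells are joined by tight junctions, adherens junctions and desmosomes. In an epithelial-mesenchymal transition these contacts are taken apart, often under transcription factors of the Zeb, Snail and Twist families, while vimentin, matrix proteins and proteases increase. Esrp1 and Esrp2 are RNA-binding proteins that maintain the epithelial pattern of alternative splicing, and Cldn7 is a claudin of the tight junction and the lateral membrane. 4T1 cells are a widely used model of metastatic breast cancer, and cells with mixtures of epithelial and mesenchymal features have often been described in such tumors.

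The cultures were grouped by the log2 value of Esrp1 and Cldn7, each taken from the probe set with the highest mean. Intermediate cultures had Esrp1 above 9 and Cldn7 below 9, Esrp1-low cultures had Esrp1 below 8, and the other 6 cultures are called epithelial. Esrp1 was 9.73 in CNOT7 over-expression replicate 2, 10.08 in vector control replicate 1 and 10.01 in vector control replicate 3, the intermediate cultures. It was 5.42 in CNOT7 over-expression replicate 3, 5.65 in sh74 replicate 1, 6.50 and 6.49 in sh75 replicates 2 and 3, and 5.21 in shScramble replicate 3, the Esrp1-low cultures. No culture lay between 6.50 and 9.73, and the epithelial cultures lay between 10.56 and 11.01, somewhat above the intermediate ones. Cldn7 was 7.84, 6.01 and 5.98 in the intermediate cultures in the same order, 5.78 to 6.79 in the Esrp1-low cultures and 10.08 to 10.92 in the epithelial cultures. The intermediate culture nearest to the Cldn7 limit, at 7.84, was CNOT7 over-expression replicate 2. These values made the states and are no result.

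**Figure D1:**
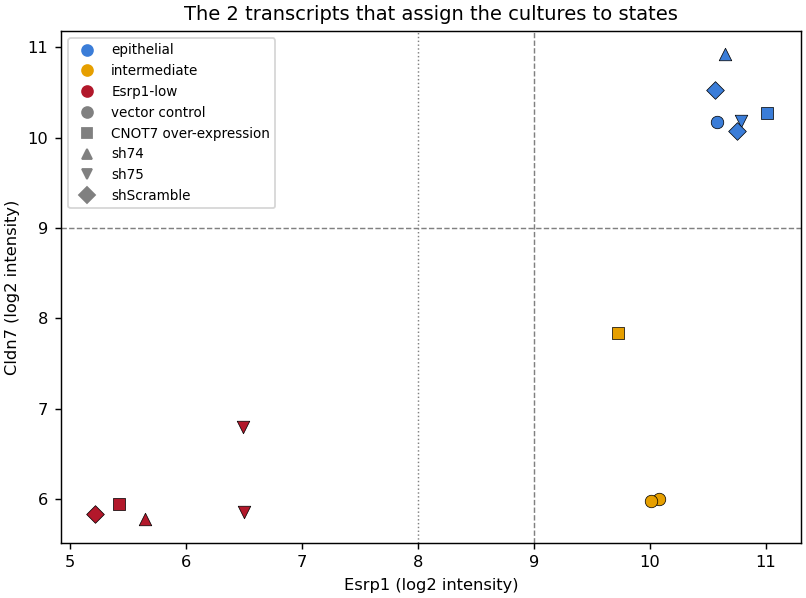
Log2 intensity of Cldn7 against that of Esrp1 in the 14 cultures; color gives the state, symbol the construct, and broken lines the limits of the rule. The 3 intermediate cultures lie at Esrp1 of 9.73 to 10.08, near the epithelial cultures, and at Cldn7 of 5.98 to 7.84, near the Esrp1-low cultures.

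State and construct were unevenly matched. All 3 intermediate cultures carried an over-expression vector (2 vector control, 1 CNOT7 over-expression), whereas 4 of the 5 Esrp1-low cultures carried a hairpin. Both states occurred together in a single treatment, CNOT7 over-expression, with 1 culture each. A hairpin was present in 0 of 3 intermediate and 4 of 5 Esrp1-low cultures (two-sided Fisher's exact test p = 0.143, adjusted p = 0.286 over 2 label tests; the smallest p possible was 0.0179). Each title also ends in 2 numbers separated by a point, whose meaning the labels do not give. The first is used here as the title number. Number 5 occurred in 4 of 5 Esrp1-low cultures and 1 of 3 intermediate cultures (Fisher's exact p = 0.464, adjusted p = 0.464). Over all 14 samples it occurred in 4 of 5 Esrp1-low cultures and 1 of 9 others (Fisher's exact p = 0.0230, adjusted p = 0.0460). Other title numbers were not tested, and the adjustment does not cover the choice of number 5. CNOT7 over-expression replicates 2 and 3 both had number 5, as did sh75 replicates 2 and 3. The tests count each sample as independent. In the comparison of the 3 with the 5 cultures, state thus cannot be told apart from the difference between hairpin and over-expression cultures. Among over-expression cultures alone, 1 Esrp1-low culture, CNOT7 over-expression replicate 3, stands against the 3 intermediate ones. For the named genes that the comparison turns on, 3 differences are therefore given on the log2 scale: that between the 3 and 5 cultures (difference), that from a linear model of all 14 samples with treatment as a term (treatment term), and replicate 2 minus replicate 3 of CNOT7 over-expression (pair), which rests on 1 culture each.

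Array medians lay between 6.31 and 6.38. Olfactory receptor genes, which mammary cells should not express, had array medians of 3.92 to 3.98, and 90% of their 1035 probe sets had means below 4.89, a guide to the background. Cnot7 itself was 10.02, 10.07 and 10.15 in the intermediate cultures, and 10.08 and 10.20 in the Esrp1-low cultures without a Cnot7 hairpin. It was 8.71, 8.51 and 8.07 in the 3 Esrp1-low cultures with sh74 or sh75. Cnot7 thus differed between the states by 0.97, and by -0.31 with treatment as a term. The human sequence need not be seen by mouse probes, so the array does not give the level of the construct.

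The Esrp1-low cultures did not have the marker levels of fully mesenchymal cells. E-cadherin (Cdh1), the adhesion molecule of adherens junctions, was 10.66, 10.28, 10.77, 10.65 and 10.68 in the Esrp1-low cultures and 11.08, 11.11 and 11.07 in the intermediate ones. The states did not overlap, but the means were within 2-fold (difference 0.48, treatment term 0.43, pair 0.42), and Cdh1 in the Esrp1-low cultures was still far above background. The simple epithelial keratins Krt8 (11.38 to 11.80) and Krt18 (11.76 to 12.21) overlapped between the states, with differences of -0.13 and -0.03. N-cadherin (Cdh2), which replaces E-cadherin in many transitions, was 4.02 to 4.16, Snai2 4.61 to 4.94 and Zeb1 5.24 to 5.57, at or near background in both states. The name "Esrp1-low" is used here for this reason.

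Some other mesenchymal markers were graded across the epithelial, intermediate and Esrp1-low cultures. Vimentin (Vim), the intermediate filament of mesenchymal cells, was 12.71, 11.43 and 12.63 in the intermediate cultures and 13.01, 13.06, 13.02, 12.72 and 12.81 in the Esrp1-low cultures. The highest intermediate value lay just below the lowest Esrp1-low value, and 10.08 to 12.19 was measured in the epithelial cultures (difference -0.67, treatment term -1.03, pair -0.30). Zeb2, a repressor of epithelial genes, was 8.03, 6.64 and 7.44 against 8.36, 8.62, 8.54, 8.15 and 7.94 (difference -0.95, treatment term -0.70, pair -0.32). CNOT7 over-expression replicate 2 overlapped the lowest Esrp1-low culture here, and the epithelial cultures lay at 6.16 to 6.66. Snai1 (difference -0.30) and Twist1 (-0.45) were lower in the intermediate cultures without overlap, by amounts below the 2-fold limit used in what follows, and fibronectin (Fn1) overlapped (-0.39). Snai1 and Fn1 were not graded: their epithelial means, 8.47 and 12.37, lay above the intermediate means, 8.25 and 12.13.

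Epcam, the epithelial adhesion molecule, was 8.02, 8.84 and 8.70 in the intermediate cultures and 7.71, 5.98, 7.85, 7.89 and 8.41 in the Esrp1-low cultures. The states overlapped through CNOT7 over-expression replicate 2 and shScramble replicate 3, and the difference of 0.95 was 0.31 in the CNOT7 over-expression pair. The epithelial cultures, at 9.26 to 10.01, lay above both states.

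**Figure D2:**
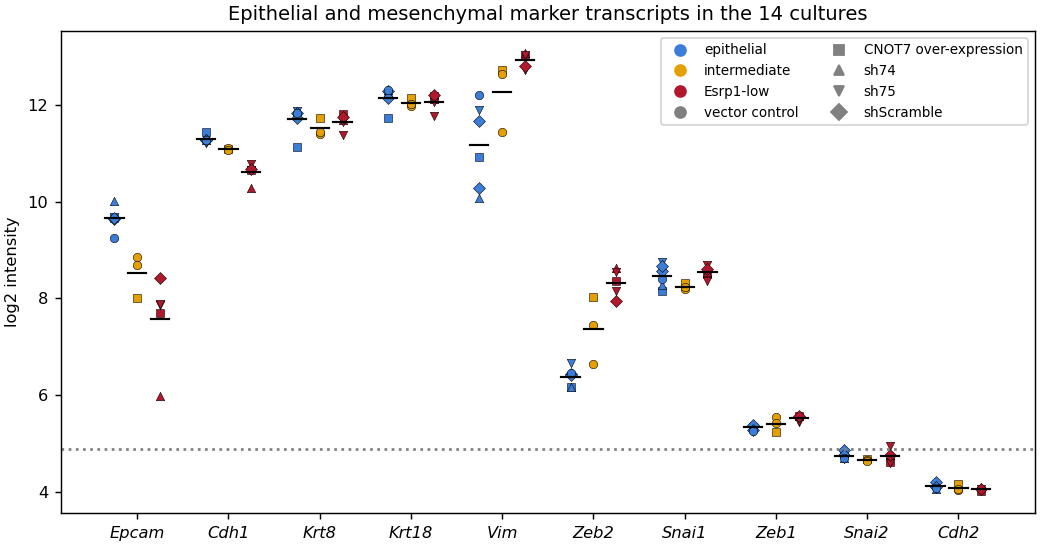
Log2 intensity of 10 marker transcripts in each culture, with the epithelial, intermediate and Esrp1-low cultures from left to right; symbols give the construct, black bars the means and the dotted line the 90th percentile of olfactory receptor probe sets (4.89). Cdh1, Krt8 and Krt18 stay above 10 in every culture, Vim and Zeb2 are graded, and Cdh2 and Snai2 lie near the dotted line.

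Most markers of other cell types were low in both states. The leukocyte gene Ptprc was 4.54 to 4.69 and the endothelial gene Pecam1 4.77 to 4.96, near background. The mean over the 19 immune markers measured was 5.06 to 5.21 in the intermediate and 5.13 to 5.21 in the Esrp1-low cultures, and 17 of them were below 6 in both states. The exceptions were Cd68 (7.48 to 8.32 in the intermediate and 8.02 to 9.01 in the Esrp1-low cultures) and Cd14 (7.06 to 8.57 and 7.37 to 8.87). For the 15 endothelial markers it was 5.35 to 5.43 and 5.37 to 5.48, for the 11 adipocyte markers 5.17 to 5.23 and 5.2 to 5.27, and for the 16 fibroblast markers 5.12 to 5.22 and 5.16 to 5.23. Of the endothelial markers 12 and of the fibroblast markers 11 were below 6 in both states. The exceptions included Flt1 (7.59 to 8.17 against 8.16 to 8.86, difference -0.56), Egfl7 (7.01 to 7.29 in both states) and Pdgfra (6.83 to 7.95 against 7.82 to 9.25, difference -1.15), and also Cldn5, Thy1, Col1a1, Col1a2 and Col3a1, at 5.91 to 6.83. None of the markers of these 4 lists differed by 2-fold without overlap. In cultures of mixed cells, fewer cells of a kind and less RNA per cell cannot be told apart.

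The 2 states were then compared across 21789 probe sets with 1 gene symbol. Since the states were made from the same arrays, the values are a description and no p-value is given for a gene. A probe set was called apart when no intermediate sample overlapped the Esrp1-low samples and the means differed by at least 2-fold, that is 1 on the log2 scale. Of all probe sets, 35 were apart and higher in the intermediate cultures (0.161%) and 90 were apart and lower (0.413%), Esrp1 among the former. They belonged to 34 and 89 genes, with a median fold of 2.34 and 2.59. In 16 of the 35 and 26 of the 90 the epithelial cultures did not overlap the Esrp1-low cultures either. The others do not separate the Esrp1-low from the epithelial cultures. Without a limit on size, 1066 (4.89%) were higher and 1155 (5.3%) lower without overlap. With treatment as a term, 22 of the 35 and 64 of the 90 still had a difference of at least 1, and in the CNOT7 over-expression pair 15 and 38 did. The sign in the pair is fixed by the choice of probe sets without overlap. The sign of the treatment term is not, since the 14-sample model also uses the epithelial cultures.

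**Figure D3:**
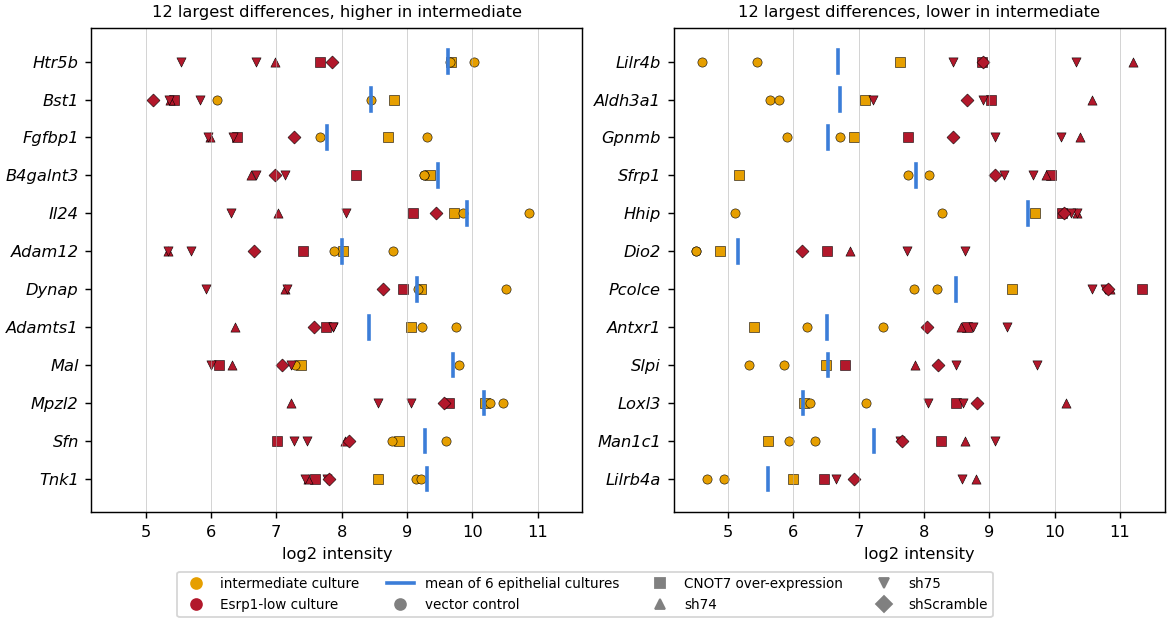
Log2 intensity of the 12 genes with the largest differences in each direction, after Esrp1; points are intermediate and Esrp1-low cultures, symbols give the construct, and blue bars mark the mean of the 6 epithelial cultures. By the rule of choice no intermediate point overlaps the Esrp1-low points, but the gap is narrow for genes such as Dynap, Slpi and Aldh3a1.

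Htr5b, a serotonin receptor, had the largest difference on the higher side after Esrp1. It was 9.68, 9.66 and 10.02 in the intermediate cultures and 7.67, 6.98, 6.68, 5.54 and 7.85 in the Esrp1-low cultures. The intermediate values fell within those of the epithelial cultures, 9.29 to 10.05 (difference 2.84, treatment term 2.67, pair 2.01). Bst1, an ectoenzyme related to CD38, was 8.81, 8.45 and 6.09 against 5.43, 5.38, 5.84, 5.36 and 5.12 (difference 2.36, treatment term 3.14, pair 3.38). Vector control replicate 3 lay just above the Esrp1-low cultures, so the intermediate cultures were spread for this gene. B4galnt3, a glycosyltransferase, was 9.35, 9.26 and 9.26 against 8.23, 6.61, 6.69, 7.13 and 6.98 (difference 2.16, treatment term 2.13, pair 1.13), with nearly equal values in the 3 intermediate cultures.

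Fgfbp1, which releases fibroblast growth factors from the matrix, was 8.70, 9.31 and 7.67 against 6.40, 5.99, 5.95, 6.34 and 7.26 (difference 2.17, treatment term 1.51, pair 2.30). Adam12, a membrane metalloprotease, was 8.02, 8.78 and 7.88 against 7.41, 5.35, 5.34, 5.69 and 6.65 (difference 2.14, treatment term 1.48, pair 0.61). Adamts1, a secreted metalloprotease, was 9.06, 9.74 and 9.23 against 7.76, 6.37, 7.87, 7.86 and 7.58 (difference 1.86, treatment term 1.46, pair 1.30). The cytokine Il24 was 9.72, 10.87 and 9.86 against 9.09, 7.03, 6.31, 8.07 and 9.45 (difference 2.16, treatment term 1.37, pair 0.63). For Adam12 and Il24 the CNOT7 over-expression pair differed much less than the groups.

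Sfn, also called stratifin, an epithelial 14-3-3 protein, was 8.88, 9.60 and 8.77 against 7.02, 8.06, 7.27, 7.47 and 8.12 (difference 1.5, treatment term 1.75, pair 1.87). Its second probe set was also apart, by 1.64. Mal, a protein of apical transport in epithelia, was 7.38, 9.79 and 7.28 against 6.12, 6.33, 6.0, 7.22 and 7.09 (difference 1.60, treatment term 1.68, pair 1.25). Vector control replicate 1 reached the epithelial range (8.69 to 10.36), and the other two intermediate cultures lay barely above the Esrp1-low ones. Mpzl2, an adhesion protein of epithelia, differed by 1.5, 1.05 and 0.54 (difference, treatment term, pair), the kinase Tnk1 by 1.35, 1.38 and 0.97, and Dynap by 2.08, 1.0 and 0.28.

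Among the 12 largest differences on the lower side were 3 genes linked to collagen. Pcolce, which enhances the processing of procollagen, was 9.34, 7.85 and 8.20 in the intermediate and 11.34, 10.84, 10.77, 10.57 and 10.81 in the Esrp1-low cultures (difference -2.40, treatment term -2.21, pair -2.0). Loxl3, an enzyme that cross-links collagen and elastin, was 6.17, 6.25 and 7.11 against 8.49, 10.17, 8.59, 8.07 and 8.81 (difference -2.32, treatment term -2.58, pair -2.32). For both genes the intermediate cultures resembled the epithelial ones, whose means were 8.49 and 6.16. Antxr1, a cell-surface receptor that binds collagen, was 5.40, 6.21 and 7.37 against 8.66, 8.57, 9.27, 8.75 and 8.05 (difference -2.33, treatment term -2.09, pair -3.26).

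Sfrp1, a secreted Wnt antagonist, was 5.18, 7.76 and 8.08 against 9.94, 9.86, 9.22, 9.68 and 9.08 (difference -2.55, treatment term -4.14, pair -4.76). CNOT7 over-expression replicate 2 was by far the lowest. Hhip, an inhibitor that binds Hedgehog ligands, was 9.71, 5.11 and 8.28 against 10.11, 10.34, 10.34, 10.25 and 10.14 (difference -2.54, treatment term -1.80, pair -0.41). The Esrp1-low cultures were close together for Hhip and the intermediate ones were far apart. The epithelial cultures overlapped the Esrp1-low ones for both genes, at 5.38 to 10.08 for Sfrp1 and 7.34 to 10.91 for Hhip. Dio2, the deiodinase that activates thyroid hormone, was 4.88, 4.51 and 4.52, near background, against 6.51, 6.88, 8.62, 7.74 and 6.13 (difference -2.54, treatment term -1.75, pair -1.63).

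Gpnmb, a glycoprotein of lysosomes and the cell surface, was 6.94, 5.90 and 6.71 against 7.76, 10.39, 10.09, 9.08 and 8.44 (difference -2.64, treatment term -2.34, pair -0.82). Aldh3a1, an aldehyde dehydrogenase, was 7.10, 5.65 and 5.79 against 9.03, 10.57, 8.90, 7.22 and 8.65 (difference -2.70, treatment term -2.19, pair -1.93). The lowest Esrp1-low culture, sh75 replicate 3, was only slightly above the highest intermediate one. Slpi, a secreted inhibitor of leukocyte proteases, differed by -2.32, -1.42 and -0.29 (difference, treatment term, pair), and Man1c1, a Golgi mannosidase, by -2.30, -1.94 and -2.66.

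Lilr4b and Lilrb4a, receptors of the leukocyte immunoglobulin-like family, were also lower, and the pair differed much less than the groups. Lilr4b was 7.64, 4.61 and 5.44 in the intermediate and 8.90, 11.20, 10.33, 8.44 and 8.90 in the Esrp1-low cultures (difference -3.66, treatment term -2.86, pair -1.26), and Lilrb4a differed by -2.28, -1.73 and -0.47. The genes are near-identical neighbors, so probes of one may also detect the other and the values are uncertain as to which gene they measure. Both are best known from myeloid cells, and other genes known from such cells lay on the same side: Cd53 was 4.29 to 4.67 against 5.30 to 6.90, Pla2g7 6.76 to 7.87 against 8.68 to 10.20 and F13a1 5.46 to 5.65 against 5.89 to 8.28, all apart, while Cd68 overlapped (-0.73). Ptprc (4.54 to 4.69) and Tyrobp (5.21 to 5.55) were near background in all 8 cultures. Other genes of leukocytes had the opposite sign: Ly9 was apart and higher (5.58 to 7.48 against 5.32 to 5.49), and Csf1r (0.22) and Itgax (0.10) overlapped. Of the 19 immune markers, 8 had a difference above 0 and 11 below, with a median of -0.01 and 0 without overlap. Cd53, Pla2g7, F13a1 and Ly9 were named after their values were seen, and the part of other cells in these values was not tested.

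Gene lists for the pathways of an epithelial-mesenchymal transition were examined next, with 24 lists in all. Counts of members without overlap are to be read against the shares of all probe sets, 4.89% higher and 5.3% lower. Of 26 tight junction and polarity genes measured, 6 were higher without overlap (23.1%) and 0 lower, with a median difference of 0.10, where the median over all probe sets was -0.0007. Cgn (cingulin, a cytoplasmic plaque protein of tight junctions) was apart, at 8.48, 9.21 and 8.55 against 8.27, 7.08, 7.60, 7.69 and 8.05 (difference 1.01, treatment term 0.78, pair 0.21). Cldn4 followed, at 10.87, 11.34 and 11.50 against 10.73, 9.49, 10.41, 10.26 and 10.34 (difference 0.99, treatment term 0.64, pair 0.14). Marveld3 (0.94, 0.67 and 0.36 for difference, treatment term and pair) and Marveld2 (0.78, 0.63 and 0.54), integral proteins of the tight junction, and the polarity protein Pard6b (0.88, 0.80 and 0.18) also did not overlap. All 5 genes differed less in the pair, and the list median was 0.14 with treatment as a term and 0.03 in the pair. Cldn7 was low in the intermediate cultures by the rule, and Cldn3 lay at 6.36 to 6.62 in the intermediate and 6.35 to 7.24 in the Esrp1-low cultures, against 8.71 to 10.28 in the epithelial cultures.

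Of 27 keratin and desmosome genes, 4 were higher without overlap (14.8%) and 0 lower (median 0.02). Pkp2, a plakophilin of the desmosomal plaque, was 9.56, 9.96 and 9.82 against 9.19, 7.59, 8.65, 8.70 and 8.86 (difference 1.18, treatment term 0.77, pair 0.36). The desmosomal cadherin Dsg2 was 9.12, 9.11 and 9.16 against 7.57, 7.0, 8.97, 8.30 and 8.36 (difference 1.09, treatment term 1.03, pair 1.55). Both were in the range of the epithelial cultures or just below its lower end, and with Sfn they were the 3 members apart by 2-fold. Another desmosomal cadherin, Dsc2, had the opposite sign (-0.72) and overlapped.

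Of 29 epithelial adhesion and surface genes, 3 were higher (10.3%) and 1 lower (3.45%) without overlap (median 0.14), and 0 were apart by 2-fold. Mal2, a protein of epithelial transcytosis, had a large difference but was spread, at 5.69, 8.90 and 7.82 against 4.96, 5.31, 4.84, 6.48 and 4.57 (difference 2.24, treatment term 2.04, pair 0.74). Its value in CNOT7 over-expression replicate 2 lay below that of sh75 replicate 3. St14 (matriptase, an epithelial surface protease) did not overlap (difference 0.78, treatment term 0.64, pair 0.47). Rab25, a GTPase of epithelial recycling endosomes, was 7.46, 8.25 and 5.96 against 6.22, 6.03, 5.99, 6.58 and 6.10 (difference 1.04, treatment term 1.12, pair 1.23), with vector control replicate 3 below all Esrp1-low cultures.

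Among 22 epithelial splicing and transcription regulators, 6 were higher (27.3%, the selector included) and 2 lower (9.09%) without overlap (median 0.10), and the selector Esrp1 was the single member apart by 2-fold. Its paralog Esrp2 was 8.76, 9.28 and 8.84 against 8.30, 7.13, 7.93, 8.58 and 8.50 (difference 0.87, treatment term 0.80, pair 0.46), and the epithelial repressor of mesenchymal genes Ovol1 differed by 0.63, 0.54 and 0.21. Gata3, a luminal transcription factor, had the opposite sign, at 10.23, 10.10 and 10.40 against 10.73, 11.20, 11.08, 10.96 and 10.52 (difference -0.65, treatment term -0.23, pair -0.51). Members of this list thus had both signs.

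Transcription factors of the transition were mostly lower in the intermediate cultures, by small amounts. Of 26 measured, 21 had a difference below 0 and 5 above, 5 were lower (19.2%) and 1 higher (3.85%) without overlap, and 0 were apart by 2-fold (median -0.16). With treatment as a term 9 of the 26 were above 0 (median -0.09), and in the pair 12 (median -0.02). Id1, an inhibitor of basic helix-loop-helix factors, was 8.28, 8.49 and 8.09 against 9.0, 9.33, 9.35, 9.36 and 8.88 (difference -0.90, treatment term -0.56, pair -0.72), and Tcf4, a basic helix-loop-helix factor, differed by -0.72, -0.68 and -0.22. Id2 had a difference of -1.30 but overlapped, at 5.94 in CNOT7 over-expression replicate 2 and 8.98 in vector control replicate 1. The Mir200 family of microRNAs represses Zeb1 and Zeb2. The precursor probe sets of Mir200a, Mir200b, Mir200c and Mir141 had means of 5.92, 4.63, 5.18 and 4.56 in the intermediate and 5.94, 4.46, 5.09 and 4.54 in the Esrp1-low cultures. Of 308 microRNA probe sets, 0 were apart by 2-fold and 11 did not overlap; no sequence of a mature form is shown, since the array probes measured precursors at low signal.

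Of 32 TGF-beta and BMP pathway genes, 25 had a difference below 0, 6 were lower (18.8%) and 1 higher (3.12%) without overlap, and 0 were apart by 2-fold (median -0.12, -0.04 with treatment as a term and -0.06 in the pair). The receptor Tgfbr1 was 9.15, 8.72 and 8.79 against 9.18, 9.81, 10.10, 9.48 and 9.51 (difference -0.73, treatment term -0.36, pair -0.03). The co-receptor Tgfbr3 differed by -0.91, -0.91 and -0.78 and the effector Smad3 by -0.69, -0.46 and -0.41, both without overlap, whereas the ligand Tgfb1 (-0.60) overlapped. The ligand subunit Inhba had the opposite sign (0.88) and overlapped.

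Mesenchymal cell genes (30 measured) had a median difference of -0.03, with 13 members above 0 and 17 below, 1 higher (3.33%) and 4 lower (13.3%) without overlap and 0 apart by 2-fold. The largest differences overlapped and had opposite signs: the receptor Pdgfra, at -1.15, and caveolin (Cav1), at 0.70. Besides Vim, the calcium-binding protein S100a4 was lower, at 10.55, 11.18 and 10.92 against 11.30, 11.72, 11.77, 11.46 and 11.29 (difference -0.62, treatment term -0.95, pair -0.75). Of 48 collagens and matrix glycoproteins, 6 were lower (12.5%) and 1 higher (2.08%) without overlap (median -0.02), and Pcolce and Loxl3 were the members apart by 2-fold.

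Of 32 integrins and laminins, 4 were lower (12.5%) and 2 higher (6.25%, near the share of all probe sets) without overlap, and 0 were apart by 2-fold (median -0.06). The laminin chain Lamb3 was 7.81, 9.30 and 9.23 against 7.18, 5.92, 6.93, 7.11 and 8.23 (difference 1.71, treatment term 1.1, pair 0.62), with shScramble replicate 3 overlapping. Itgb3 had the opposite sign, at 8.27, 6.40 and 7.54 against 8.21, 9.11, 9.87, 9.36 and 8.59 (difference -1.62, treatment term -1.02, pair 0.06). Of 26 matrix proteases and inhibitors, 3 were higher (11.5%) and 2 lower (7.69%) without overlap (median -0.16, but 0.02 with treatment as a term and 0.18 in the pair). Adam12 and Adamts1, described above, were apart, and Mmp3 (stromelysin) was 10.24, 6.84 and 8.64 against 9.66, 11.97, 11.12, 10.85 and 10.88 (difference -2.32, treatment term -1.15, pair 0.58), with overlap through the CNOT7 over-expression pair.

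Among 33 growth factor receptors and ligands, 1 was higher (3.03%) and 2 lower (6.06%) without overlap, near the shares of all probe sets (median 0.00). Erbb3 was apart on the higher side and betacellulin (Btc) on the lower side. Erbb3, a partner of Erbb2, was 8.55, 8.43 and 8.07 against 7.23, 6.80, 7.32, 7.2 and 6.89 (difference 1.26, treatment term 1.15, pair 1.32). Btc, a ligand of the EGF family, was 5.89, 6.56 and 6.22 against 7.43, 8.37, 6.75, 7.17 and 6.63 (difference -1.05, treatment term -1.22, pair -1.55). Fgfr1 (difference -1.45, treatment term -1.29, pair -1.43) overlapped through sh74 replicate 1. The isoforms of fibroblast growth factor receptors that Esrp proteins control cannot be resolved by a single value per gene.

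In 4 further lists, some medians moved with the treatment term or in the pair. Cholesterol synthesis genes had the largest list median, 0.34, with 17 of 20 above 0, yet every member overlapped. With treatment as a term the median was 0.71 (18 above 0), and in the pair 0.66 (17 above 0). Idi1, an isomerase of the isoprenoid pathway, was 10.02, 10.44 and 10.48 against 8.10, 9.51, 9.63, 9.37 and 10.41 (difference 0.91, treatment term 1.65, pair 1.92), with shScramble replicate 3 at the level of the intermediate cultures. Sqle differed by 0.53, 1.04 and 0.87 and Msmo1 by 0.48, 0.93 and 1.06, also enzymes of this pathway.

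Of 35 interferon response genes, 25 had a difference below 0 (median -0.22), and 1 was higher (2.86%) and 2 lower (5.71%) without overlap. With treatment as a term the median was -0.47, with 2 members above 0, but in the pair it was -0.04, with 14 above 0. Of 12 antigen presentation genes, 11 had a difference below 0 (median -0.12) and all 12 overlapped. Their median was -0.23 with treatment as a term, with 2 above 0, but 0.03 in the pair, with 7 above 0. Of 29 hypoxia and glycolysis genes, 3 were higher (10.3%) and 1 lower (3.45%) without overlap, and the median of 0.09 became -0.21 with treatment as a term and -0.13 in the pair.

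In the other lists the shares without overlap were near those of all probe sets or rested on 3 members or fewer. Mitosis (30 genes, median -0.06) and DNA replication (37 genes, median -0.03) had 1 member in each direction without overlap. Of 33 chemokines, cytokines and colony-stimulating factors, 1 was higher and 3 lower without overlap (median -0.03). Ccl2 (-0.94, -0.32 and -0.31 for difference, treatment term and pair) and Il11 (-0.80, -0.67 and -0.32) were among the latter, while Lcn2 (-2.02) and Tslp (-1.68) overlapped. The largest difference in size, that of Il1a, had the opposite sign (difference 2.53, treatment term 2.32, pair 4.67). Il1a was spread and overlapped, at 7.13 to 12.19 in the intermediate and 4.77 to 11.27 in the Esrp1-low cultures. Of 22 mammary lineage genes, 2 were lower without overlap, and the milk protein gene Csn3 was apart (difference -1.23, treatment term -0.88, pair -0.88). Of 19 CCR4-NOT genes, 1 was lower without overlap (median 0.01), and the largest difference, that of Cnot7, followed the hairpins as described above.

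**Figure D4:**
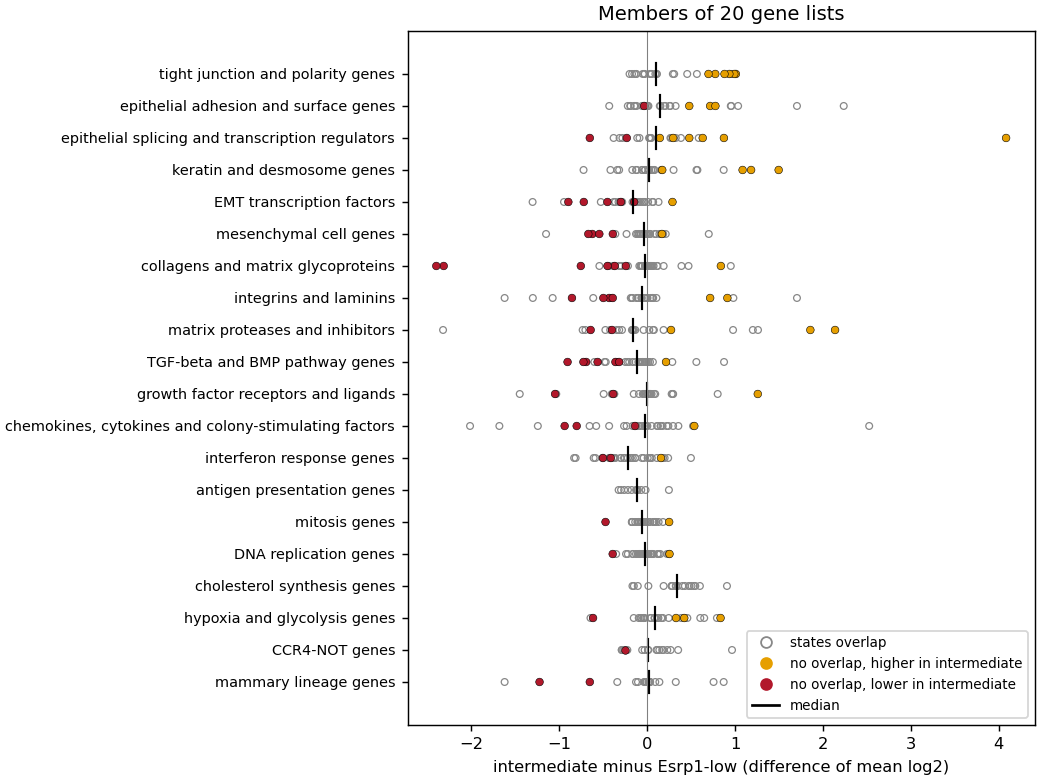
Difference of mean log2 between intermediate and Esrp1-low cultures for each measured member of 20 gene lists; filled points are members whose samples did not overlap, open points overlapped, and black bars are list medians. Medians lie between -0.22 and 0.34, and several members with differences over 1 in size are open points, that is, their states overlap.

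The intermediate cultures were then placed between the epithelial and the Esrp1-low cultures. For each probe set whose means differed by at least 1 between those states, a position was computed that is 0 at the Esrp1-low mean and 1 at the epithelial mean. Of 127 probe sets higher in the epithelial cultures, 16 (12.6%) lay beyond the Esrp1-low mean (position below 0), 33 (26%) near it (0 to 0.33), 31 (24.4%) midway (0.33 to 0.67), 36 (28.3%) near the epithelial mean (0.67 to 1) and 11 (8.66%) beyond it, with a median position of 0.47. Of 138 probe sets lower in the epithelial cultures, the same classes held 7 (5.07%), 16 (11.6%), 43 (31.2%), 36 (26.1%) and 36 (26.1%), with a median position of 0.69. The Esrp1-low mean enters both the choice and the position, and Esrp1 and Cldn7 chose the states, so these shares are a description.

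Some genes higher in the epithelial cultures were low in the intermediate cultures. Besides Cldn7 (position 0.13), low by the rule, these were Cldn3 (-0.04), Bspry (-0.01), the carbonic anhydrase Car9 (0.12), the epithelial transcription factor Ehf (0.26), the epithelial sorting adaptor subunit Ap1m2 (0.28) and Rab25 (0.28). Ap1m2 was 6.16, 7.77 and 5.48 in the intermediate and 5.1 to 5.89 in the Esrp1-low cultures, against 8.57 to 9.34 in the epithelial cultures. Epcam (0.46), Mal2 (0.46), Marveld3 (0.58) and Erbb3 (0.61) lay midway. Cldn4 (0.72), St14 (0.72), Esrp2 (0.79), Dsg2 (0.84), Sfn (0.88), Lamb3 (0.92) and Pkp2 (0.99) were near the epithelial mean, as was the selector Esrp1 (0.84).

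The genes lower in epithelial cultures were also split. Sparc and Fbln1, matrix glycoproteins, and the metalloprotease Adam19 were close to the Esrp1-low mean, with positions of 0.21, 0.21 and 0.23. Sparc was 10.78 to 11.20 in the intermediate and 11.12 to 11.67 in the Esrp1-low cultures, while the epithelial cultures ranged from 5.81 to 11.12. Vim (0.38), S100a4 (0.47) and Zeb2 (0.49) lay midway. Loxl3 (0.87), Itgb3 (0.87), Fgfr1 (0.88), Pcolce (1.01) and Mmp3 (1.23) were near the epithelial mean or beyond it. The members named in these last paragraphs were picked after their values were seen, to show each class.

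**Figure D5:**
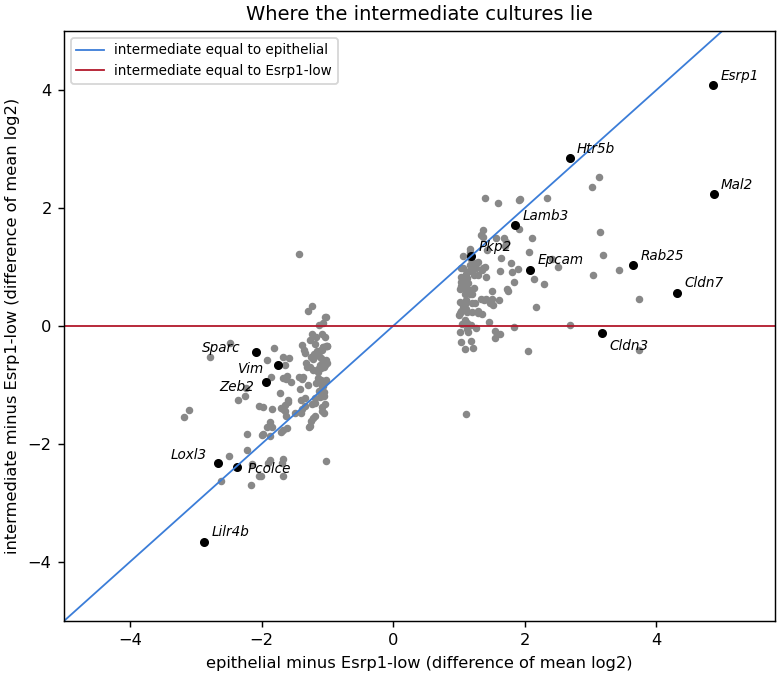
Difference of the intermediate from the Esrp1-low mean against the difference of the epithelial from the Esrp1-low mean (log2) for the 265 probe sets in which the latter is at least 1 in size. Points on the blue diagonal have epithelial levels in the intermediate cultures (Pkp2, Pcolce), and points on the red line have Esrp1-low levels (Cldn3, with Cldn7 near it). Both axes share the Esrp1-low mean.

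Zeb and Snail factors bind the E-box letters CACCTG, and Cldn7, Epcam and Sfn have them before their start sites. RefSeq promoter windows of 300 bases (250 before and 50 after the start, build GRCm38.p6) were searched for CACCTG on both strands, where the other strand reads CAGGTG. The letters occurred in 22.6% of 27025 genes with a window. They occurred in 8 of the 19 genes apart and higher that have a window (42.1%) and in 18 of 64 apart and lower (28.1%). A match is not a measured site of binding. The 250 bases before the start are shown for the selector Cldn7 (chr11:69965171-69965420, plus strand) and for the midway gene Epcam (chr17:87635729-87635978, plus strand). They are also shown for Sfn, a gene near the epithelial mean (chr4:133602169-133602418, minus strand), with the E-box letters in capitals.
Cldn7: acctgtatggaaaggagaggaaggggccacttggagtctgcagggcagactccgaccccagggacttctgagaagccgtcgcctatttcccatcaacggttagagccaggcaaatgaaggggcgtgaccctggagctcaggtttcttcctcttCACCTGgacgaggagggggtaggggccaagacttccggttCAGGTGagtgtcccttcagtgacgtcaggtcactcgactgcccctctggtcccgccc
Epcam: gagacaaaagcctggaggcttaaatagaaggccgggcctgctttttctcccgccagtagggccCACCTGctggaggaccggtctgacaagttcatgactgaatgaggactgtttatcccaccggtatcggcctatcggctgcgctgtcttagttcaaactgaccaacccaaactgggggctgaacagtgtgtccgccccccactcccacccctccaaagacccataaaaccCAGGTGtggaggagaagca
Sfn: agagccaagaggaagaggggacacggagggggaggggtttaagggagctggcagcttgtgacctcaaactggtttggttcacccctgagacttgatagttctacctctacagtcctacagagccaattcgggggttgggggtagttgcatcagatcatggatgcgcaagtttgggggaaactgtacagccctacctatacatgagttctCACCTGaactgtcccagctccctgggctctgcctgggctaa
The matches begin 97 and 57 bases before the start in Cldn7, 187 and 19 in Epcam and 41 in Sfn. A second RefSeq window of Cldn7 holds 0 matches. Cldn7, low in both states, Epcam, midway, and Sfn, high in the intermediate cultures, all carry these letters in a window, but only windows with a match are shown. On the higher side the windows of B4galnt3 and Tnk1 also have matches, while those of Fgfbp1, Adamts1 and Mal hold 0. On the lower side those of Lilr4b, Gpnmb, Hhip, Dio2 and Man1c1 hold 0, while those of Pcolce and Slpi have matches.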

How the data were processed

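Trizol-extracted RNA of 14 cultures was hybridized to Affymetrix mouse gene arrays. The submitters' processing notes name RMA and oligo, that is background correction, quantile normalization between arrays and 1 summary value per probe set. The authors deposited log2 values, which were used without further scaling. Tool versions are not given in the sources used here. RMA compresses differences of low signals, so folds of dim genes are understated.

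Of 35556 probe sets, 21789 with 1 gene symbol (19938 genes) were compared, and 13767 with several symbols or none were counted apart. Entrez identifiers of 21698 were found in the RefSeq table. A gene was represented by its probe set with the highest mean. The states, gene lists (600 of 643 members measured) and members were chosen with earlier results of these data known. Named were Esrp1, Cldn7, Epcam, Cnot7, the 12 largest differences in each direction among probe sets apart with a higher mean of at least 6, the 2 to 6 largest differences in the lists described, and defining markers; predicted, olfactory, small RNA and histone genes were not named. Genes named outside this rule are Cldn3, Bspry, Car9, Ehf, Sparc, Fbln1, Adam19, Cd53, Pla2g7, F13a1, Ly9, some cell type markers, the Mir200 precursors and those of the closing observations.

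Differences are intermediate minus Esrp1-low means, with no test, since the states come from the same values. Construct and title number were tested by two-sided Fisher's exact tests with Benjamini-Hochberg adjustment over 2 tests. Linear models had 7 residual degrees of freedom with treatment and 6 with title number as a term. The number of arrays limits the precision. Calculations used Python 3.11.15, numpy 2.4.6, pandas 2.3.3 and scipy 1.17.1, and were tested on simulated data. Alternatives left out each culture, adjusted for treatment or title number, were restricted to some cultures, and changed the scaling, the size limit and the probe sets per gene.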

Additional observations from a re-analysis of the deposited data

Results flagged for a closer look

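Within the 5 Esrp1-low cultures, 28 genes were examined for a culture far from the others, and 2 genes had one. Chance marks about 1 in 20 groups of values in this way. Cldn7 was highest in sh75 replicate 3 (6.79, next 5.94), with a gap of 0.835 of the whole range. Adamts1 was lowest in sh74 replicate 1 (6.37, next 7.58), with a gap of 0.807 of the range.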

How the results depend on the processing

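Counts of probe sets apart are given as higher and then lower in the intermediate cultures, 35 and 90 in the comparison of all 8 cultures. Counts within 1.5 times of these were 25 and 88 with treatment as a term, 39 and 77 with each array centered on its median, 35 and 90 without dim probe sets, 34 and 88 with 1 probe set per gene, and 27 and 78 without cultures carrying a Cnot7 hairpin, a setting chosen, like those of the next sentence on subsets, after seeing the data. Among over-expression vector cultures alone the counts were 74 and 129, within title number 5 they were 64 and 138, both with fewer cultures to separate, and 26 and 57 probe sets without overlap among all 8 cultures had a difference of at least 1 in the CNOT7 over-expression pair. At a limit of 1.5-fold they were 136 and 258, and without a limit 1066 and 1155. Leaving out each culture gave 29 to 58 and 75 to 137; counts moved by over 1.5 times without vector control replicate 3 (58 higher), CNOT7 over-expression replicate 2 (56 and 137), CNOT7 over-expression replicate 3 (53 higher) and shScramble replicate 3 (53 higher). With title number as a replicate block the counts were 47 and 103, of which 33 and 83 were among the 35 and 90. The residuals of same-number samples of different treatments had a median correlation of 0.093 (-0.297 to 0.590, 13 pairs). Those of different numbers had -0.098 (-0.549 to 0.549, 65 pairs), so same-number samples were on the median more alike, but not every pair. These residuals had treatment removed but not state. Since 4 of 5 Esrp1-low cultures had number 5, number and state cannot be told apart here. The test of title number 5, the single number tested, passed the threshold over all samples (Fisher's exact p = 0.0230), where more samples enter. The share of probe sets higher in the epithelial cultures with a position under 0.33 was 38.6%, and 29.9% to 48.8% when leaving out an intermediate culture (29.9% without vector control replicate 3, 48.8% without replicate 1); for those lower in the epithelial cultures it was 16.7%, and 14.5% to 25.4% (25.4% without vector control replicate 1). Of 167 named genes, the difference moved by over 1 SD in 32 with treatment as a term and in 87 in the CNOT7 over-expression pair, and in 0 on leaving out a culture. No named gene that was apart changed sign. On leaving out cultures, in subsets of cultures and in the pair this was fixed by the choice of genes without overlap. Genes that overlapped, such as Cnot7, changed sign in some settings.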

Other observations

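Receptors of the interleukin-6 family were among the probe sets apart and lower in the intermediate cultures. These genes were chosen after their values were seen. Osmr, the receptor of oncostatin M, was 6.60 to 7.03 in the intermediate and 7.31 to 8.60 in the Esrp1-low cultures (difference -1.23, treatment term -1.79, pair -1.99). Lifr, the receptor of leukemia inhibitory factor, was 4.88 to 5.01 against 5.18 to 6.35 (difference -1.08, treatment term -1.24, pair -1.34), where the intermediate values are near the background guide of 4.89, and the interleukin-6 receptor Il6ra was 7.85 to 8.36 against 8.91 to 9.96 (difference -1.38, treatment term -0.79, pair -0.56).

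Enzymes that conjugate or oxidize xenobiotics and aldehydes, also chosen after their values were seen, lay on the same side as Aldh3a1. As difference, treatment term and pair, Mgst2 differed by -1.84, -1.57 and -1.30, Gstm1 by -1.47, -1.38 and -1.01, Gsta4 by -1.45, -1.73 and -1.35, Aldh3a2 by -1.25, -0.84 and -0.50, and Aox1 by -1.22, -1.07 and -0.64, each without overlap between the states. Nqo1, which belongs with them by function, was 5.43 to 6.27 against 6.14 to 7.83 (difference -1.30) and overlapped. Heparan sulfate is the substrate of another pair, the sulfatase Sulf2 (difference -1.57) and the heparanase Hpse (difference -1.53).

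Of the 13767 probe sets with several gene symbols or none, 6 were apart and higher and 6 apart and lower. Second probe sets of Dab2 and Prkch, near background, did not show the differences of the first.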
